A study of Mus musculus with 49 samples.

Results

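The comparison set blood cells of mice 18 h after an injection of oleic acid (OA) against blood cells of mice 4 h after it. Its members were the arrays labelled with OA and 18 h (5 arrays of 4 mice) or with OA and 4 h (5 arrays of 4 mice), which makes 10 of the 49 arrays and 8 of the 37 mice of the series. The mice were 7 weeks old wild-type C57Bl/6J females under xylazine and ketamine anesthesia, and OA went into the tail vein. Control mice received physiological serum by the same route, with 2 mice at 4 h and 2 at 18 h. The labels give the tissue as PBMC (peripheral blood mononuclear cells), while the extraction text speaks of lung and names a kit for mouse blood, and whether mononuclear cells were isolated is not settled. The RNA was amplified, labelled with 33P and hybridized to nylon filters that carry cDNA clones. A replicate is a mouse, and where 2 arrays came from it their mean was taken.

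Oleic acid in a vein reaches the lung first and injures its capillaries and air spaces within hours. Circulating leukocytes respond to such an injury in phases, in which innate cells release cytokines early and stress hormones shift lymphocytes between blood and tissue. MHC class II molecules carry peptides to CD4 T cells on B cells, monocytes and dendritic cells, and are loaded in endosomes with the help of Cd74, H2-DM and H2-O. Interferon-stimulated genes are switched on by interferons through their receptors and the kinase Jak1.

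The class II genes share a known promoter layout, an X box and a Y box shortly before the start of transcription, which the class II transactivator and its partners read. The 120 bases before the RefSeq start of 4 class II genes on the filters are shown so that this layout stands beside the measured differences (RefSeq, build GRCm38.p6, each 5′ to 3′ on the strand of its gene). Capitals mark the letters GATTGG, the core of the Y box, and AGCAAC, a core of the X box, on either strand.
H2-Eb1, chr17:34305747-34305866, plus strand: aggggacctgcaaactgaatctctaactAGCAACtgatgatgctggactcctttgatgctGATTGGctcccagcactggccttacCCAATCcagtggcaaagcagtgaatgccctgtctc
H2-Oa, chr17:34092259-34092378, plus strand: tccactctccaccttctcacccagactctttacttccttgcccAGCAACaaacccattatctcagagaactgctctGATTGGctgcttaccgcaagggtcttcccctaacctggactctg
H2-Ob, chr17:34238785-34238904, plus strand: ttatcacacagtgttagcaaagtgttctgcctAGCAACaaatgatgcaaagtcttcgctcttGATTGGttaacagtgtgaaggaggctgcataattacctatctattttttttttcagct
H2-Aa, chr17:34287824-34287943, minus strand: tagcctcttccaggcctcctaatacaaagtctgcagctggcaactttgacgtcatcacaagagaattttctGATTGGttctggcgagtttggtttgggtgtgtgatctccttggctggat
GATTGG began 60 bases before the start in H2-Eb1, 44 in H2-Oa, 58 in H2-Ob and 49 in H2-Aa, and H2-Eb1 held a reverse copy at 35 bases. AGCAAC lay 92, 77 and 88 bases before the start in H2-Eb1, H2-Oa and H2-Ob, and these letters were not in the H2-Aa window. Of 32851 RefSeq promoters cut to the same 120 bases, 9.67% held GATTGG, 6.34% held AGCAAC and 0.6% held both. The values of these 4 genes are given with the class II list.

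The mice of a group were not alike. The first principal component over all 37 mice held 36.2% of the variance, and 7 mice stood apart on it with scores above 30. Among the 8 OA mice these were mouse 2 at 18 h (44) and mice 2 (61.3) and 3 (40) at 4 h. The other 18 h mice lay between -15.5 and -14, and 4 h mice 5 and 6 lay at 6.67 and 5.98. Both serum mice at 4 h, 1 of 2 serum mice at 18 h and 1 OA mouse at 3 h made up the rest. Mouse 2 at 18 h was hybridized on 2 arrays, which correlated at 0.80 with each other and at -0.30 to -0.39 with the other 18 h arrays, taken over clones as deviations from the mean of all arrays. Clones of a single gene, Actb (β-actin), followed these mice unequally. One clone read 11.29 in 18 h mouse 2 against 13.75 to 13.93 in the other 18 h mice, and another read 11.78 against 11.17 to 11.79. What sets these mice apart is not given by the labels, and its part in the results was not tested. Values without them are given for the overall counts, for gene lists and for some of the named genes.

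**Figure D1:**
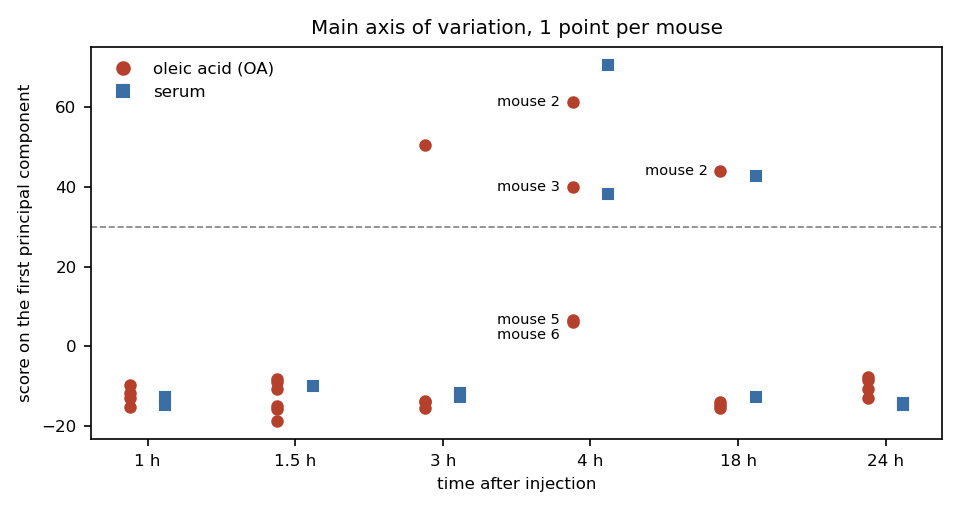
Score of each mouse on the first principal component over all clones (no unit), by hours after injection, with circles for OA and squares for serum. The dashed line is at 30: OA mouse 2 at 18 h (44) and OA mice 2 (61.3) and 3 (40) at 4 h lie above it, and the other OA mice of the comparison lie between -15.5 and 6.67.

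On the 10 OA arrays the median clone signal was 109 to 238, and 42.7% to 55.6% of the clone spots were well above the empty spots. Levels below are log2 spot intensities after quantile normalization. A difference is the 18 h mean minus the 4 h mean on that scale, with the standard error (SE) of the limma fit over all 12 groups and a p adjusted by Benjamini-Hochberg. Across 7739 clones, none passed an adjusted p of 0.05 (0.00%) in limma, and the lowest adjusted p was 0.0688. Unadjusted p-values under 0.05 were found for 1206 clones (15.6%), of which 640 were higher (8.27%) and 566 lower (7.31%) at 18 h. When arrays were only scaled by their medians, without quantile normalization, the split was 541 higher and 791 lower. All 18 h mice lay above all 4 h mice for 183 clones (2.36%) and below them for 178 (2.30%), 361 in all (4.66%). Without 18 h mouse 2, 686 clones passed (8.86%), 431 of them higher (5.57%) and 255 lower (3.29%). That setting is one-sided: it leaves out the 18 h mouse that stood apart and keeps 4 h mice 2 and 3, which also did. Without all 3 OA mice that stood apart, which leaves 3 mice against 2, 26 clones passed (0.336%), 21 higher (0.271%) and 5 lower (0.0646%). In what follows no difference passed the test with all 8 mice, and "higher" or "lower" refers to the 18 h mean.

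Among the genes with the smallest p-values on the higher side were Ifi30, Psma7, Pnp and Slc25a5. Ifi30 (GILT), the lysosomal thiol reductase that opens disulfide bonds of antigens, read 8.68, 8.86, 9.27 and 9.03 at 18 h in mice 2, 3, 5 and 6. At 4 h it read 8.12, 7.74, 7.62 and 7.77 in the 4 h mice with these numbers. The groups did not overlap, and mouse 2 was the lowest at 18 h and the highest at 4 h. The difference was 1.15 (SE 0.22, 2.22-fold, adjusted p = 0.0688). It was 1.24 without 18 h mouse 2 (adjusted p = 0.00427) and 1.36 without the 3 mice that stood apart (adjusted p = 0.0317).

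Psma7, a subunit of the 20S proteasome core, read 9.24, 9.52, 9.84 and 9.69 at 18 h against 8.42, 8.86, 8.70 and 8.77 at 4 h. Its groups did not overlap, with a difference of 0.89 (SE 0.17, 1.85-fold, adjusted p = 0.0688). The other 2 clones of Psma7 gave smaller differences of 0.30 and 0.41 (adjusted p = 0.685 and 0.538). Slc25a5, the ADP/ATP carrier of the inner mitochondrial membrane, read 10.55, 10.92, 10.43 and 10.58 at 18 h against 9.77, 9.73, 9.84 and 9.72 at 4 h. The 4 h mice lay close together and all under the 18 h mice (difference 0.85, SE 0.18, 1.8-fold, adjusted p = 0.0692). Pnp, the purine nucleoside phosphorylase that lymphocytes depend on, was at 8.73 ± 0.43 (SD, n = 4) against 7.56 ± 0.40 (SD, n = 4), a 2.25-fold difference with no overlap (adjusted p = 0.0688 in limma). Without 18 h mouse 2 these 3 genes passed (adjusted p = 0.00375 for Psma7, 0.0121 for Slc25a5 and 0.0116 for Pnp), and without the 3 mice that stood apart they did not (adjusted p = 0.0513, 0.107 and 0.221).

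Dusp7, a phosphatase of the ERK kinases, had the largest difference of the 30 genes chosen by their p-value, and the mice split on it. It read 10.15, 10.28 and 10.14 in 18 h mice 3, 5 and 6 but 7.56 in mouse 2, inside the 4 h range of 7.07 to 7.86. The groups therefore overlapped. The difference was 2.22 (SE 0.52, adjusted p = 0.0771) with all mice and 3.03 (adjusted p = 0.0173) without those that stood apart. Ly6c1, a surface protein of monocytes and other leukocytes, read 11.45, 10.44, 11.65 and 10.60 at 18 h and 9.58, 9.91, 9.93 and 10.03 at 4 h. Here mouse 2 was among the higher 18 h mice, the groups did not overlap, and the difference was 1.17 (SE 0.26, adjusted p = 0.0771), or 0.92 without the 3 mice that stood apart (adjusted p = 0.238). A cDNA spot can bind RNA of near-identical Ly6 family members, so the Ly6c1 value is uncertain in that respect.

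Shisa5, a protein of the endoplasmic reticulum, was at 11.94 ± 0.24 against 10.93 ± 0.30, and St13, a cochaperone of Hsp70, at 8.42 ± 0.35 against 7.69 ± 0.12 (SD, n = 4 mice in each group). Arhgap4 was at 8.70 ± 0.53 against 7.52 ± 0.34. All of these had no overlap, with adjusted p-values in limma of 0.0771 for Shisa5, 0.0894 for St13 and 0.0771 for Arhgap4. A second clone of Shisa5 gave a difference of 0.63. Gimap7, a GTPase of lymphocytes, differed by 0.65 with all mice (adjusted p = 0.0933) and by 1.06 without the mice that stood apart (adjusted p = 0.0155).

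For 5 further genes of this rank no 4 h array was well above the empty spots. Their fold of means is therefore given as "at least", taken against the lowest measurable signal of those arrays. An "at least" fold, here and below, allows for the background only and not for the spread among mice. Lrch4 was at least 2.09-fold higher at 18 h. Atic, an enzyme of purine synthesis, was at least 1.71-fold higher, and Zdhhc18, a palmitoyl transferase, at least 1.58-fold. Tcirg1, a subunit of the vacuolar proton pump, was at least 1.55-fold higher, and Arhgap27 at least 1.53-fold. Each was above background on 3 of 5 arrays at 18 h, with adjusted p-values from 0.0771 to 0.0933. A second clone of Lrch4 gave a difference of 0.03.

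On the lower side, Vcl (vinculin, which ties integrin adhesions to actin) read 11.56, 11.27, 10.91 and 11.13 at 18 h against 12.33, 12.41, 12.10 and 12.02 at 4 h. The groups did not overlap, with a difference of -0.99 (SE 0.26, adjusted p = 0.0933). Fkbp5, a cochaperone of the glucocorticoid receptor that glucocorticoids induce, read 6.59, 7.37, 6.94 and 7.22 at 18 h against 7.42, 8.41, 8.39 and 8.80 at 4 h. It was well above the empty spots on 4 of 5 arrays at 4 h and on 0 at 18 h, which makes it at least 2.12-fold lower at 18 h (adjusted p = 0.0771). The adjusted p was 0.0295 without 18 h mouse 2 and 0.0564 without the 3 mice.

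Avpr1a, the vasopressin V1a receptor, read 7.35, 7.54 and 7.41 in 18 h mice 3, 5 and 6 and 9.24 in mouse 2, against 9.68, 9.66, 9.69 and 9.09 at 4 h. Mouse 2 thus lay inside the 4 h range. The difference was -1.65 with it (SE 0.34, adjusted p = 0.0688) and -2.10 without it (adjusted p = 0.00115). Asap1, a regulator of Arf GTPases at adhesions, was at 8.63 ± 0.29 against 9.90 ± 0.44 (SD, n = 4 each, difference -1.27, adjusted p = 0.0688 in limma). Pla2g4a, the cytosolic phospholipase A2 that frees arachidonic acid, was at 7.63 ± 0.30 against 8.71 ± 0.22 (SD, n = 4 each, difference -1.08, adjusted p = 0.0771 in limma). The groups did not overlap for Asap1 and Pla2g4a.

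Further genes on the lower side were Antxr1 (-1.39), Polr2g (-1.11), Itm2a (-1.02), Tecr (-0.79), Capn5 (-0.74) and Blmh (-0.64), given as log2 differences, each with an adjusted p of 0.0933. Itm2a, Tecr and Blmh had no overlap between the groups, while Antxr1, Polr2g and Capn5 did. Without the 3 mice that stood apart Itm2a was at -0.61 and Tecr at -0.53. A second clone of Antxr1, not well above the empty spots, gave -0.29. The clones of Tecr disagreed, since the other 2 gave -0.16 and 0.56. For Fbf1, Entr1 and Gad1 no 18 h array was well above the empty spots, and they were at least 1.77-fold, 1.48-fold and 2.14-fold lower at 18 h (adjusted p = 0.0688, 0.0771 and 0.0933). Gad1 makes the transmitter GABA in neurons, and at 4 h it read 9.17 in mouse 2 against 7.33 to 7.86 in the other mice.

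**Figure D2:**
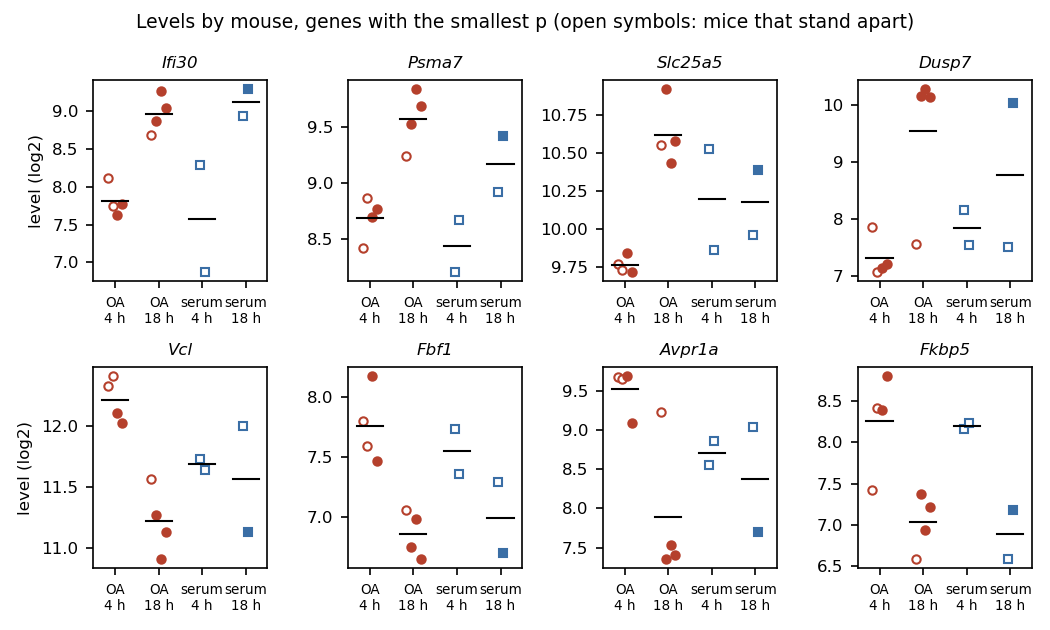
Level of 8 genes with small p-values (log2 intensity) in each OA mouse (circles) and serum mouse (squares) at 4 and 18 h, with open symbols for mice that stand apart and bars for means. The OA circles of the 2 times do not overlap for Ifi30, Psma7, Slc25a5, Vcl, Fbf1 and Fkbp5, while for Dusp7 (7.56) and Avpr1a (9.24) the open circle at 18 h falls in the 4 h range.

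Of the 29 gene lists, class II, B cell and interferon-stimulated genes had the highest median differences, and T cell markers the lowest under the normalization used. Platelet markers had a lower median than T cell markers under median scaling (-0.42 against -0.32), in the authors' table (-0.27 against -0.26), with dim clones left out (-0.33 against -0.31) and with first arrays (-0.34 against -0.29). The median over all 5769 genes was -0.0277. The list members with values below were chosen after their values were seen, as those with the smallest p, apart from genes named for other reasons.

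All 8 genes of class II presentation on the filters had a higher mean at 18 h, with a median difference of 0.50. The median was 0.60 without 18 h mouse 2 and 0.47 without the 3 mice that stood apart. Of these, Cd80 and Cd86, ligands of costimulation, were not well above the empty spots on any of the 10 OA arrays, so only 6 had a readable direction. None of the 8 passed with all mice. Unadjusted p-values under 0.05 on the higher side were found for 5 of them, Cd80 included, and for 8.32% of all genes. The β chain gene H2-Eb1 read 9.75, 12.74, 12.34 and 12.77 at 18 h and 8.43, 8.88, 10.65 and 11.16 at 4 h. In each group the mice that stood apart were the lowest, and the groups overlapped. The difference was 2.12 (SE 0.69, 4.35-fold, adjusted p = 0.143) with all mice, 2.84 (adjusted p = 0.0132) without 18 h mouse 2 and 1.71 (adjusted p = 0.31) without the 3.

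H2-DMa, a chain of the peptide editor H2-DM, read 7.71, 9.0, 9.11 and 9.13 at 18 h against 6.74, 7.21, 8.05 and 8.20 at 4 h (difference 1.19, SE 0.38, adjusted p = 0.136). Its 18 h mouse 2 again lay inside the 4 h range. Cd74, the invariant chain, read 11.63, 12.80, 11.85 and 12.13 against 10.55, 10.44, 11.62 and 11.88, a difference of 0.98 (SE 0.38, adjusted p = 0.205). It was 0.51 without the 3 mice that stood apart (adjusted p = 0.705). The groups overlapped, and the other 2 clones of Cd74 gave 0.65 and 0.82. H2-Oa, a chain of H2-O, which inhibits H2-DM, was at 8.60 ± 0.32 against 7.97 ± 0.06 (SD, n = 4 each), a difference of 0.63 with no overlap (adjusted p = 0.171 in limma), and a second clone gave 0.27. H2-Ob, its partner chain, differed by 0.38 (SE 0.32, adjusted p = 0.582) with all mice and by 0.09 without 18 h mouse 2, and the α chain gene H2-Aa by 0.19 (SE 0.37, adjusted p = 0.836). Without 18 h mouse 2, 3 of the 8 passed, all higher, as did 5.60% of all genes on that side.

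Among 21 measured B cell markers 18 were higher at 18 h, with a median difference of 0.46 (0.36 without the 3 mice that stood apart). None passed, and 8 had unadjusted p-values under 0.05, all higher (8.32% of all genes on that side). Without 18 h mouse 2, 4 passed, all higher (5.60% of all genes). Cd79b, the signalling partner of the B cell receptor, read 9.93, 10.84, 10.24 and 10.11 at 18 h against 9.39, 8.71, 9.59 and 9.58 at 4 h. The groups did not overlap (difference 0.96, SE 0.35, adjusted p = 0.188), and a second clone gave 0.94. Cd37, a tetraspanin of B cells, read 8.57, 9.38, 9.18 and 8.92 against 7.99, 8.19, 8.55 and 8.39, with mouse 2 at 18 h just above the highest 4 h mouse (difference 0.73, SE 0.22, adjusted p = 0.114). Bank1, a scaffold of B cell receptor signalling, was higher by 1.28 (SE 0.41, adjusted p = 0.135), although 4 h mouse 2 (10.48) lay within the 18 h range of 9.66 to 11.20.

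The groups did not overlap for 4 of the 21, namely Cd79b, Cd37, Cd72 and Blk, and on the higher side for 2.41% of all genes. Cd72, an inhibitory coreceptor, differed by 0.74 in its brighter clone (adjusted p = 0.128) and by -0.89 in a dimmer one (adjusted p = 0.101), so its clones disagree. The kinase gene Blk and the low-affinity IgE receptor gene Fcer2a were not well above the empty spots at 4 h, and were at least 1.65-fold and 1.35-fold higher at 18 h (adjusted p = 0.141 and 0.0933). Fcer2a read 7.41 to 7.69 in 18 h mice 3, 5 and 6 and 6.52 in mouse 2, and passed without the 3 mice that stood apart (adjusted p = 0.033). Ms4a1 (CD20) differed by 0.46 (SE 0.36, adjusted p = 0.539), and its 3 other clones gave 0.53, -0.06 and -0.35. The summed level of the B cell list spanned 14.10 to 14.63 at 18 h and 13.79 to 14.55 at 4 h. In bulk RNA, more cells of a type and more RNA per cell cannot be told apart.

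Of 27 interferon-stimulated genes 21 were higher at 18 h, with a median of 0.44 (0.37 without the 3 mice that stood apart). Unadjusted p-values under 0.05 were found for 8 higher and 2 lower genes, against 8.32% and 7.57% of all genes. Ifi35 read 7.46, 8.17, 8.55 and 8.58 at 18 h against 6.30, 6.91, 7.37 and 7.53 at 4 h, and 18 h mouse 2 fell just under the highest 4 h mouse. It was not well above the empty spots at 4 h and was at least 2.04-fold higher at 18 h (adjusted p = 0.101). Bst2 (tetherin, which holds budding viruses at the membrane) was at least 1.80-fold higher (adjusted p = 0.0933). Without 18 h mouse 2 the adjusted p was 0.0127 for Ifi35 and 0.00561 for Bst2, and without the 3 mice it was 0.23 and 0.119.

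Ifnar1 and Jak1, also read here, are parts of the pathway that switches such genes on. Ifnar1, a chain of the type I interferon receptor, read 9.60 to 9.69 in 18 h mice 3, 5 and 6 and 8.15 in mouse 2, against 8.27, 7.57, 8.41 and 8.54 at 4 h. The difference was 1.07 (SE 0.34, adjusted p = 0.138). Usp18, which removes ISG15 from proteins, read 8.33, 6.98, 8.12 and 7.24 at 18 h against 6.82 to 7.31 at 4 h. Thus 2 of the 18 h mice were high and 2 lay inside the 4 h range. No 4 h array was well above the empty spots for Usp18. It was 1.41-fold higher at 18 h by its measured means (adjusted p = 0.261, and 0.41 without mouse 2). Jak1 read 10.59, 9.94, 9.88 and 10.59 at 18 h against 10.60, 11.05, 10.80 and 11.20 at 4 h, with the 2 higher 18 h mice just under the lowest 4 h mouse. Its difference was -0.66 (SE 0.25, adjusted p = 0.203), and a second clone gave -0.87. Cmpk2 differed by -1.06 with all mice (adjusted p = 0.114 in limma) and by -1.70 without the 3 mice that stood apart (adjusted p = 0.033). It was well above the empty spots on 2 of 5 arrays at 4 h and on 0 at 18 h. At 4 h it read 9.36 in mouse 5 against 6.97 to 7.60 in the other mice.

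T cell markers lay on the lower side, with a median of -0.27, and 8 of 27 were higher at 18 h. Unadjusted p-values under 0.05 were found for 6 lower genes and 1 higher gene, and on the lower side for 7.57% of all genes. Without 18 h mouse 2, 4 passed on the lower side, as did 3.41% of all genes, and 1 on the higher. Without the 3 mice that stood apart the median was -0.09. Cd2, an adhesion receptor of T and NK cells, read 7.58, 7.31, 7.28 and 7.71 at 18 h against 7.97, 8.23, 7.87 and 8.13 at 4 h, with no overlap (difference -0.58, SE 0.15, adjusted p = 0.0933). Cd69, an early activation marker that keeps lymphocytes in tissue, read 10.70, 9.71, 8.78 and 9.12 against 11.44, 11.11, 10.38 and 10.25 (difference -1.22, SE 0.43, adjusted p = 0.173). Here mouse 2 at 18 h was above the 2 lower 4 h mice.

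Il2ra, the α chain of the IL-2 receptor, was lower by a log2 difference of -0.98 (adjusted p = 0.135). Tox, a nuclear regulator of T cell development, differed by -0.54 (adjusted p = 0.179), and the chromatin organizer Satb1 by -1.24 (adjusted p = 0.244), each with overlap, and Tox was at -0.33 without the 3 mice that stood apart. Lat, the adaptor of the T cell receptor, had no overlap (-0.54, adjusted p = 0.204) and was at -0.27 without them. The receptor genes themselves did not go one way. Cd3e gave -0.95 in its brighter clone (adjusted p = 0.338) and 0.92 in another (adjusted p = 0.353), Cd3d gave -0.18 (adjusted p = 0.77) and Cd8a gave 0.46 (adjusted p = 0.261). Cd4 was not well above the empty spots on any of the 10 OA arrays. The summed level of the T cell list spanned 13.10 to 13.58 at 18 h and 13.34 to 14.08 at 4 h.

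**Figure D3:**
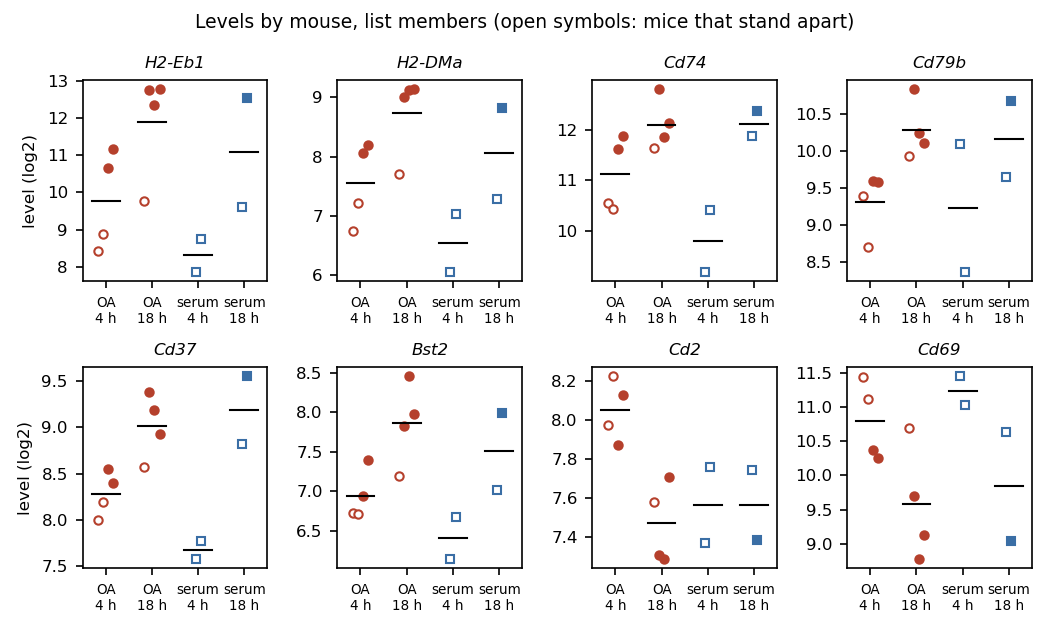
Level of 8 members of the class II, B cell, interferon and T cell lists (log2 intensity) in each OA mouse (circles) and serum mouse (squares) at 4 and 18 h, with open symbols for mice that stand apart and bars for means. For H2-Eb1 the open circles (9.75 at 18 h, 8.43 and 8.88 at 4 h) lie lowest in both OA groups, and for Cd2 all 18 h circles lie under all 4 h circles.

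The counts of protein turnover genes are read against 8.32% of all genes higher and 7.57% lower at unadjusted p-values under 0.05. Of 37 lysosomal genes 8 were higher and 2 lower at unadjusted p-values under 0.05, with a median of 0.15. Ctsa, a lysosomal carboxypeptidase, read 9.32, 10.23, 10.07 and 10.51 at 18 h against 9.10, 9.32, 9.27 and 9.91 at 4 h, with overlap (difference 0.63, adjusted p = 0.184). Laptm5, a lysosomal membrane protein of leukocytes, read 8.63 to 10.07 in 18 h mice 3, 5 and 6 and 6.03 in mouse 2. No 4 h array was well above the empty spots for it (mean at least 2.94-fold higher at 18 h, adjusted p = 0.252). The difference was 1.79 (SE 0.75), and 18 h mouse 2 lay below the 4 h range of 6.22 to 7.13. Atp6ap1, an accessory subunit of the proton pump, was at 9.36 ± 0.66 against 8.46 ± 0.70 (SD, n = 4 each, adjusted p = 0.249 in limma). The 2 lower members were subunits of the same pump, Atp6v1e1 (-0.83, adjusted p = 0.317) and Atp6v1d (-0.55, adjusted p = 0.307). The pump genes thus did not go one way. Mcoln1, a lysosomal calcium channel, was not well above the empty spots on any of the 10 OA arrays.

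The list of proteasome and ubiquitin enzymes (45 genes, median 0.09) had 7 higher and 4 lower members at unadjusted p-values under 0.05. Psmb5, a catalytic subunit, was at 8.70 ± 0.88 at 18 h against 7.46 ± 0.45 (SD, n = 4 each, adjusted p = 0.171 in limma). Psmd2 of the proteasome cap, not well above the empty spots at 4 h, was 1.73-fold higher by its measured means (adjusted p = 0.179). The conjugating enzyme gene Ube2g1 differed by -1.04 (adjusted p = 0.207), with a second clone at -0.39. Of 33 chaperones, 8 were higher and 2 lower at unadjusted p-values under 0.05 (8.32% and 7.57% of all genes), and their median was -0.03. Hspa8, the constitutive Hsp70, read 11.75, 11.49, 12.05 and 12.01 against 10.88, 11.17, 11.0 and 11.07, with no overlap (difference 0.80, adjusted p = 0.198). P4hb, a disulfide isomerase, differed by 0.75 (adjusted p = 0.135). The 2 lower members were Pdia3, also a disulfide isomerase (-0.53, adjusted p = 0.257), and Canx (-0.43, adjusted p = 0.290). The chaperonin subunits Cct5 and Cct7 differed by 0.51 and 0.54 (adjusted p = 0.172 and 0.224), and by 0.26 and 0.20 without the 3 mice that stood apart. The other 2 clones of Cct5 gave -0.08 and 0.25.

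Of 14 glucocorticoid-responsive genes, 1 had an unadjusted p under 0.05, namely Fkbp5, on the lower side (7.57% of all genes on that side). Sgk1, another such gene, read 10.31, 9.32, 10.11 and 10.31 at 18 h against 10.06, 11.01, 10.43 and 10.13 at 4 h (difference -0.39, SE 0.38, adjusted p = 0.646). Of 14 clock and temperature-responsive genes, 3 were lower and 1 higher at unadjusted p-values under 0.05 (7.57% and 8.32% of all genes). Rbm3, a cold-induced RNA-binding protein, read 10.83, 11.07, 9.73 and 10.44 at 18 h against 12.07, 11.91, 10.93 and 11.02 at 4 h (difference -0.97, adjusted p = 0.164). The clock repressors Cry1 (-0.71, adjusted p = 0.214) and Bhlhe40 (-1.47, adjusted p = 0.242) were also on the lower side, with other clones at -0.38 and -0.55 for Cry1 and -0.33 for Bhlhe40. Without the 3 mice that stood apart Rbm3 was at -0.56, Cry1 at -0.43 and Bhlhe40 at -0.73. Tef, a clock-controlled transcription factor, was at least 1.17-fold higher (adjusted p = 0.317), with a second clone at -0.12. Cirbp, the cold-inducible relative of Rbm3, differed by 0.64 (adjusted p = 0.627).

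Of 17 inflammatory genes, Ccl6 and Tgfb1 had unadjusted p-values under 0.05, both higher (8.32% of all genes on that side). The chemokine Ccl6 read 10.11, 10.24, 10.15 and 9.92 at 18 h against 8.80, 9.36, 9.24 and 9.30 at 4 h, with no overlap (difference 0.93, SE 0.35, adjusted p = 0.203). Tgfb1, a cytokine that restrains lymphocytes, differed by 0.83 (adjusted p = 0.208). Il1b, the main secreted IL-1 cytokine of myeloid cells, read 11.69, 10.33, 11.89 and 11.15 at 18 h against 8.89, 10.17, 10.51 and 10.46 at 4 h, a difference of 1.26 (SE 0.80, 95% interval -0.37 to 2.89, adjusted p = 0.444). The receptor antagonist Il1rn was at 0.62 (adjusted p = 0.632) and the decoy receptor Il1r2 at -0.10 (adjusted p = 0.922).

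Among early response genes, Csrnp1, a nuclear protein induced by growth signals, read 10.26, 10.90, 11.07 and 10.88 at 18 h against 9.46, 9.54, 9.51 and 9.58 at 4 h, with no overlap (difference 1.26, SE 0.59, adjusted p = 0.301). Btg1 (0.70, adjusted p = 0.261 in limma) and Myc (-1.27, adjusted p = 0.28 in limma) had smaller unadjusted p-values than Csrnp1. Both overlapped between the groups, and Myc went the other way. Fos (-0.39), Junb (0.46), Gadd45b (0.25) and the NF-kB inhibitor Nfkbia (-0.15) had adjusted p-values of 0.791 to 0.897. Fos stood at 12.89 in 18 h mouse 2 and 12.73 in 4 h mouse 2, against 9.63 to 11.19 in the other 6 mice.

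Markers of other blood cells were also measured. Hba-a1, an α-globin gene of red cells, was at the scanner ceiling on all 10 OA arrays, so no difference can be read for it. The erythroid list of 25 had a median of -0.05, with 2 lower members at unadjusted p-values under 0.05 (7.57% of all genes on that side). These were the transcription factors Tal1 (-1.0, adjusted p = 0.196) and Gata1 (-0.83, adjusted p = 0.261), both with no overlap (2.25% of all genes on that side). Tal1 was at -0.65 without the 3 mice that stood apart. Alas2 of heme synthesis (0.28), Glrx5 (0.33), Mpp1 (-0.04) and, outside the list, the glutathione peroxidase gene Gpx1 (-0.21) had adjusted p-values of 0.789 to 0.98. The summed level of the erythroid list spanned 15.86 to 16.27 at 18 h and 15.79 to 16.34 at 4 h.

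Of 17 neutrophil markers 10 were higher at 18 h, with Ly6c1 and Cd177 at unadjusted p-values under 0.05, both higher (8.32% of all genes on that side). Ly6c1 is not particular to neutrophils, and its value is uncertain for the reason given above. Cd177 was well above the empty spots on 1 of 5 arrays at 18 h. The calprotectin gene S100a8 read 13.37, 10.32, 11.94 and 11.47 at 18 h against 11.88, 12.28, 10.68 and 10.22 at 4 h (difference 0.51, adjusted p = 0.775). Its partner S100a9 (0.56), Lcn2 (0.14), Slpi (1.07), Ltf (-0.29), Clec4d (-0.18) and, outside the list, the lamin gene Lmnb1 (0.69) had adjusted p-values of 0.386 to 0.929. Cd177 and G0s2 were not well above the empty spots at 4 h, and their means were at least 1.03-fold and 1.18-fold higher at 18 h (adjusted p = 0.283 and 0.752). The G0s2 difference was 0.43 with an SE of 0.57. The summed level of the neutrophil list spanned 12.79 to 14.94 at 18 h and 12.93 to 13.89 at 4 h. RNA of genes on the neutrophil and erythroid lists was thus measured in samples labelled PBMC. Which cells it came from, and the part of cell composition in the results, was not tested.

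Of 7 platelet genes, the ADP receptor gene P2ry12 was lower (-1.59, adjusted p = 0.234) and Gp9 higher (1.20, adjusted p = 0.246) at unadjusted p-values under 0.05. Over all genes 7.57% were lower and 8.32% higher at that level. Itga2b, the platelet integrin, was at -0.20 (adjusted p = 0.76). P2ry12 read 12.99 in 4 h mouse 2 against 9.96 to 11.22 in the other 4 h mice and 8.77 to 10.37 at 18 h. Without the 3 mice that stood apart P2ry12 was at -0.86 and Gp9 at 1.94. Of 13 lung epithelium and endothelium markers 0 had an unadjusted p under 0.05 in limma, and 5 were above background on a proportion of 0.5 or more of the 10 OA arrays. Acsl1, which activates fatty acids, was at -0.09 (adjusted p = 0.904).

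**Figure D4:**
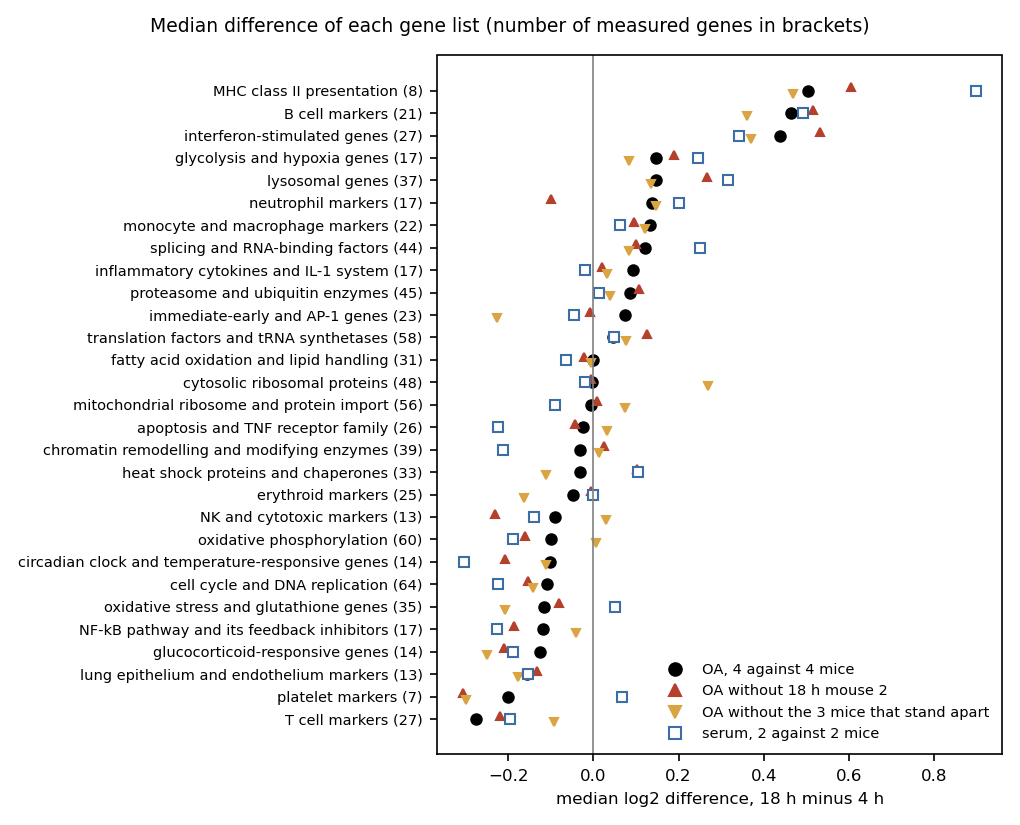
Median log2 difference (18 h minus 4 h) of the measured genes of each of the 29 lists, for OA mice with all 8 (circles), without 18 h mouse 2 (upward triangles) and without the 3 mice that stand apart (downward triangles), and for serum mice (squares). With all 8 mice, MHC class II (0.50), B cell (0.46) and interferon-stimulated genes (0.44) lie highest and T cell markers (-0.27) lowest in the normalization plotted, while platelet markers lie lower under 4 of the 5 alternatives.

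Serum mice were compared over the same interval, 2 mice against 2, which asks how much of the difference comes with time after any injection. In limma 1 clone of 7739 passed (0.0129%), and 1076 had unadjusted p-values under 0.05 (13.9%), 480 higher (6.20%) and 596 lower (7.70%). The serum medians were 0.90 for class II, 0.49 for B cell, 0.34 for interferon-stimulated and -0.20 for T cell genes. Both serum mice at 4 h and 1 of 2 at 18 h were among those that stood apart. Ifi30 differed by 1.53 in serum mice (SE 0.31, adjusted p = 0.0838) and by 1.15 in OA mice. H2-Eb1 differed by 2.77 and Cd37 by 1.52 (SE 0.31) in serum mice.

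Slc25a5 and Vcl differed little in serum mice, by -0.02 (SE 0.26) for Slc25a5 and -0.12 (SE 0.36) for Vcl. The OA difference minus the serum difference was 0.87 (SE 0.31, unadjusted p = 0.00974 and adjusted p = 1 in limma) for Slc25a5 and -0.87 (SE 0.44) for Vcl. No clone passed the test of this difference in limma (0.00%), and 345 had unadjusted p-values under 0.05 (4.46%), 211 above 0 (2.73%) and 134 below (1.73%). The median SE was 0.406 for it, against 0.234 for the OA comparison. The time differences are therefore not assigned to OA.

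The 6 times of the OA mice place both groups, as a description with no test. Ifi30 was at 8.56 ± 0.36 (SD, n = 4), 8.42 ± 0.16 (n = 6) and 8.17 ± 0.30 (n = 4) at 1, 1.5 and 3 h. It was at 7.81 ± 0.21 at 4 h, 8.96 ± 0.25 at 18 h and 8.71 ± 0.27 at 24 h (n = 4 each), so its 4 h mean was the lowest of the 6. Cd37 was also lowest at 4 h (8.28 ± 0.24, against means of 8.87 to 9.68 at the other times), as was Cd74 (11.12 ± 0.73, against 11.65 to 12.79). The 4 h means include mice 2 and 3, which stood apart. For Cd74, 4 h mice 5 and 6 read 11.62 and 11.88, on both sides of 11.65, and for Cd37 they read 8.55 and 8.39, below 8.87. Vcl and Cd69 were highest at 4 h, at 12.22 ± 0.18 and 10.79 ± 0.57. Fkbp5 was highest at 3 h (8.58 ± 0.75), and at 18 h it was not well above the empty spots. Slc25a5 was at 9.77 ± 0.05 at 4 h, 10.62 ± 0.21 at 18 h and 9.90 ± 0.18 at 24 h, so its 24 h mean was nearer to that at 4 h. Il1b was highest at 1.5 h (13.03 ± 1.59) and lowest at 24 h (8.75 ± 1.39).

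**Figure D5:**
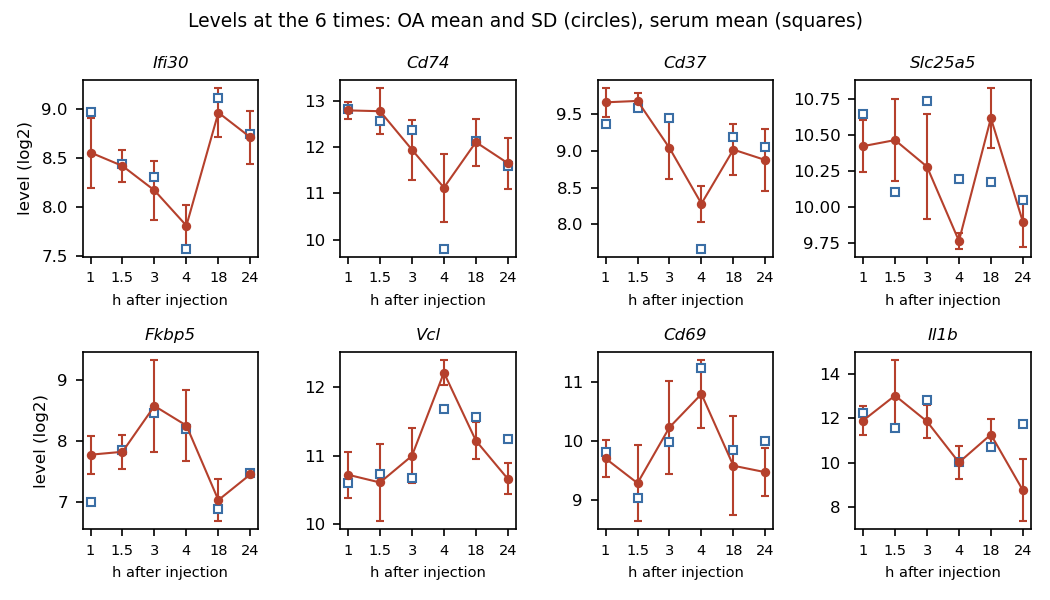
Level of 8 genes (log2 intensity) at 1, 1.5, 3, 4, 18 and 24 h after injection, with the OA mean and SD over mice (circles, 4 mice a time and 6 at 1.5 h) and the serum mean (squares). Ifi30, Cd74 and Cd37 have their lowest OA mean at 4 h (7.81, 11.12 and 8.28), and Vcl and Cd69 their highest (12.22 and 10.79). The 4 h means include mice 2 and 3, which stand apart.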

How the data were processed

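The RNA of each mouse was measured on nylon filters with 9984 spots, 7771 of them cDNA clones and 1478 empty. The deposited files of the authors hold an unlogged intensity for each spot, from 15 to a ceiling of 21815, with no background value. The authors also deposited a table of quantile-normalized log2 values, used as an alternative. Software of the quantification is not given in the sources used here.

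Intensities were put on the log2 scale, quantile normalized over clone spots, and averaged per clone (7739) and per mouse. They were fitted with limma 3.58.1 in R 4.3.3 over all 12 groups (25 residual degrees of freedom, Benjamini-Hochberg, threshold 0.05). The fit was tried on simulated data in which clones and mice varied independently. No simulated mouse stood apart, so that trial does not cover the effect of such mice. Well above background means above the median of the empty spots plus 2.6 robust SDs. A group below it on all arrays gives an "at least" fold, the bright mean against the higher of that array's lowest measurable signal and the clone's own. This fold does not allow for the spread among mice. Where the clone's own signal was the higher on all arrays, it is the measured fold. The brightest clone stood for each of 5769 genes, named through a GRCm38.p6 table (6430 clones by symbol, 1037 by synonym, 272 unnamed).

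Named were the 15 genes with the smallest p in each direction, since none passed, among genes well above background on a proportion of at least 0.5 of the arrays of the higher group, 29 measured genes of a fixed list of 32 and members of 12 lists. Members of the comparison, genes and lists were chosen with earlier results of these data known. The design text counts 39 mice, of which 37 are analysed here. Each time and mouse number was taken as 1 animal, and the number of arrays limits the precision. Alternatives were other scalings, filters, fits and leaving out mice. Results for some named genes are not reported here.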

Additional observations from a re-analysis of the deposited data

Results flagged for a closer look

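Of 208 groups of 4 mice tested, over 104 named genes at 2 times, 18 held a mouse whose gap to the nearest other was above Dixon's critical value, and chance flags about 1 in 20 groups. Of these, 10 were mouse 2 at 18 h, the mouse hybridized on 2 arrays that stood apart on the main axis. Its log2 levels, each with the nearest of the other 18 h mice, were those of Dusp7 (7.56, nearest 10.14), Zdhhc18 (6.39, nearest 7.77), Atic (6.56, nearest 7.88), Avpr1a (9.24, nearest 7.54), Entr1 (7.31, nearest 6.92), Blmh (8.23, nearest 7.99), H2-DMa (7.71, nearest 9.0), H2-Eb1 (9.75, nearest 12.34), Ifnar1 (8.15, nearest 9.60) and Psmd2 (7.04, nearest 8.35). Among the 4 h mice, mouse 2 was far from the others for Dusp7 (7.86, nearest 7.20), Shisa5 (10.48, nearest 11.04), Bank1 (10.48, nearest 8.93) and H2-Aa (10.0, nearest 9.35). Mouse 3 at 4 h was far from the others for Tcirg1 (6.37, nearest 6.67), Il1rn (9.97, nearest 8.92) and Cd3e (10.71, nearest 9.65). Mouse 6 at 4 h, which did not stand apart, was far from the others for Avpr1a (9.09, nearest 9.66). What sets these mice apart was not tested.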

How the results depend on the processing

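With all 8 OA mice, 0 clones passed under median scaling, the authors' table, an added 50, the trended robust prior and the 3 fits of other samples or blocks. Keeping 4285 clones above the empty spots gave 6 and the first array of each mouse 2. Leaving out 1 OA mouse gave 0 to 686 clones, 686 without 18 h mouse 2 and 3 without 4 h mouse 2. Without the 3 OA mice that stood apart 26 passed, and without all 7 mice of the series 322 (266 higher, 56 lower). Both settings, and the choice to report values without 18 h mouse 2, came after seeing the data. In serum mice the 1 clone became 0 with the filter, and 0 to 719 when a mouse was left out (719 without 4 h mouse 4, 5 without 4 h mouse 1, 2 without 18 h mouse 4 and 0 without 18 h mouse 1). For the difference between the treatments, leaving out a mouse gave 0 to 90 clones (90 without serum 4 h mouse 4, 3 without 4 h mouse 1 and 1 without 18 h mouse 4). A group left with 1 mouse is assumed to vary like the others. Whether equal mouse numbers pair the mice was not settled. Deviations correlated at 0.63, -0.12, 0.50 and 0.25 for numbers 2, 3, 5 and 6, and at -0.67 to 0.49 between unlike numbers. For 18 h mice 2, 5 and 6 the 4 h mouse of the same number correlated highest, for mouse 5 at 0.497 against 0.493. With the replicate block 0 clones passed, with 1496 at unadjusted p-values under 0.05 among the 8 mice (802 without the block) and 1236 over all 12 groups, against 1206. Of 104 named genes, 91 kept their direction in every setting run, other clones aside, and 54 passed without 18 h mouse 2, 28 without the 7 mice, 8 without the 3, 6 with the filter, 2 with first arrays and 2 without 4 h mouse 2. Directions turned when 1 mouse was left out, with these ranges of the log2 difference: Il1r2 (-0.27 to 0.18), Junb (-0.092 to 0.83), Itga2b (-0.38 to 0.051), S100a8 (-0.023 to 0.99), Gpx1 (-0.55 to 0.064), Clec4d (-0.41 to 0.058), Glrx5 (-0.026 to 0.82), Lcn2 (-0.27 to 0.61), Fos (-1.10 to 0.14), Cirbp (-0.035 to 1.01), Acsl1 (-0.25 to 0.18), Mpp1 (-0.17 to 0.21) and Alas2 (-0.054 to 0.55). Without the 3 or the 7 mice, they turned for Il1r2 (0.28), Junb (-0.47), Itga2b (0.17), Glrx5 (-0.21) and Alas2 (-0.16). Median scaling turned Lcn2 (-0.0047) and Alas2 (-0.052), and first arrays turned Mpp1 (0.20). Other clones, 25 of 33 in the same direction, turned Cd3e (0.92), Cct5 (-0.080), Cd72 (-0.89), Ms4a1 (-0.055), Ms4a1 (-0.35), Lmnb1 (-0.37), Tef (-0.12) and Tecr (0.56). Median scaling moved the median of all clones from -0.024 to -0.085. The class II, B cell, interferon and T cell medians kept their sign under the 5 scalings and filters run, and the early response median turned (-0.087 with median scaling and -0.050 with first arrays). In each case not decided by the mice left out, the cause was not tested. Signal over background limits dim genes, since 42.7% to 55.6% of the clone spots were above it.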
